A study of Mus musculus with 6 samples.

Results

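Amino acid transporters of the solute carrier families Slc1a, Slc3a, Slc6a, Slc7a, Slc36a, Slc38a and Slc43a were followed in breast tumours of mice. The members were all probes of the deposited signal table whose annotated gene symbol is one of these family names followed by a number. They were 118 probes of 57 genes, out of 45279 probes and 19057 named genes on the array. A gene counted as detected when 3 or more of the 6 arrays gave one of its probes a detection p under 0.05, which held for 31 of the 57 genes. Of these 31 genes, 15 were above background on all 6 arrays, 12 on 4 or 5 arrays and 4 on exactly 3 arrays.

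The study compared 3 knockout tumours (Cyp27b1 flox/flox;Cre+) with 3 control tumours (Cyp27b1 flox/flox;Cre-), all on the FVB background, to see how tumour gene expression differs when mammary epithelium lacks the enzyme that makes active vitamin D. Both groups carry the floxed alleles and only the knockout tumours carry Cre, so an effect of Cre itself and that of losing Cyp27b1 cannot be told apart. The sources used here give neither the promoter that drives Cre, nor the cause of the tumours, nor the age of the mice. Each tumour was hybridised to 1 Illumina bead array, and the labels name no animals. The p-values therefore reflect only how far these samples spread, which may be technical.

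Carriers of these families move amino acids, and in some cases amines, taurine, betaine or creatine, across the cell membrane or the membrane of lysosomes and vesicles. Slc1 members take up glutamate, aspartate or small neutral amino acids, and Slc6 members are sodium- and chloride-driven carriers that include the neurotransmitter transporters. Several Slc7 members are light chains that need the heavy chain Slc3a2 to reach the surface, whereas the cationic carriers of the same family work alone. Slc38 members carry glutamine and other neutral amino acids. In the mammary gland such carriers supply amino acids for milk protein, and in tumours they supply glutamine, cystine and essential amino acids.

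The arrays differed somewhat in total signal and slightly in the share of probes detected. The summed signal was between 1.23e7 and 1.48e7 in knockout tumours and between 1.07e7 and 1.34e7 in control tumours. Between 35.5% and 36.1% of probes were above background in knockout tumours, against 33.4% to 35.3% in control tumours. Every knockout array thus lay above every control array in this share, by a small margin. On the second principal component over all detected probes, with 18.4% of the variance, knockout 1 lay at 53.5, apart from knockout 2 at -26.2 and knockout 3 at -31.5. The number of detected transporter genes above background on a single array was between 23 and 27 in knockout tumours and between 25 and 27 in control tumours.

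Of the 31 detected transporter genes, 2 rose and 3 fell in knockout tumours relative to control tumours. The rises were those of Slc6a2, the noradrenaline transporter, and Slc1a1, a carrier of glutamate, aspartate and cysteine. The falls were those of Slc6a12, a carrier of betaine and GABA, Slc6a17, a carrier of neutral amino acids in synaptic vesicles of neurons, and Slc7a3, a carrier of arginine and other cationic amino acids. The other 26 genes did not pass the test (limma, two-sided, Benjamini-Hochberg adjusted p below 0.05 over all 15885 detected probes). The 5 called genes were 16.1% of the 31. Over all 9354 detected genes, each taken by its detected probe with the highest mean, 10.1% were called, 4.47% higher and 5.63% lower. Over all detected probes 9.2% were called.

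A log2 difference of at least 1, which is a fold of 2, was seen for 6 of the 31 genes (19.4%), against 14.4% of all detected genes. The groups did not overlap for 8 of the 31 (25.8%), against 32.1% of all detected genes. The log2 difference was above 0 for 13 genes and below 0 for 18, with a median of -0.15, against 0.05 over all detected genes. The median size of the difference was 0.32 log2 units for the transporters and 0.33 for all detected genes. Detection bears on these counts, because a gene can pass through the group where it is high. Among the called genes Slc6a12 was above background on the 3 control arrays and on no knockout array, Slc6a17 on 3 control arrays and 1 knockout array, and Slc1a1 on 3 knockout arrays and 1 control array.

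**Figure D1:**
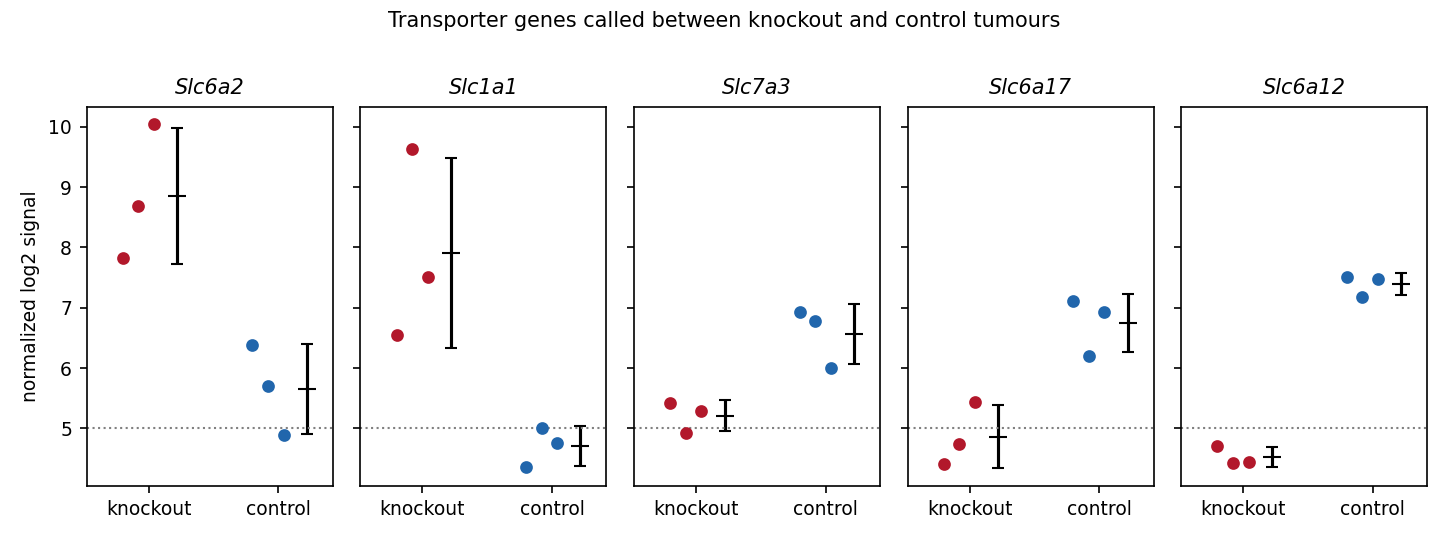
Normalized log2 signal (vertical axis) of the 5 called transporter genes in each knockout tumour (red, left) and control tumour (blue, right), with bars for the group mean ± SD (n = 3 each). The dotted line marks the highest floor of detected probes over the arrays, 5.0. In each of the 5 panels the 3 knockout tumours lie wholly above or wholly below the 3 control tumours, and the 3 knockout values of Slc6a12 lie under the line.

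Slc6a2 clears noradrenaline from synapses and is the carrier that marks noradrenergic nerves. Its normalized log2 signal was 7.83, 8.68 and 10.05 in knockout tumours 1, 2 and 3, and 6.38, 5.70 and 4.89 in control tumours 1, 2 and 3. All knockout tumours were higher than all control tumours, and control 3 was not above background. The log2 difference was 3.20 ± 0.58 (SE), a 9.17-fold rise on the normalized scale (limma adjusted p = 0.016). A second detected probe of Slc6a2, the dimmer of the pair, gave 0.48 ± 0.25 (SE) and was not called (limma adjusted p = 0.27), so the size of the rise rests on 1 probe. The call was lost without knockout 2 (adjusted p = 0.054), without control 3 (0.055), without the filter on dim probes (0.083) and with the authors' values (log2 difference 1.56, adjusted p = 0.077), and over the alternatives the adjusted p ran from 0.0070 to 0.27.

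Slc1a1 is the neuronal and epithelial member of the glutamate carriers and also takes up cysteine for glutathione synthesis. Its log2 signal was 6.56, 9.63 and 7.52 in knockout tumours 1, 2 and 3, and 4.35, 5.01 and 4.76 in control tumours 1, 2 and 3. The 3 knockout tumours spread widely (SD 1.58), yet the lowest of them lay above all control tumours, of which only control 2 was above background. The log2 difference was 3.19 ± 0.69 (SE, limma adjusted p = 0.028), and its size rests in part on the 2 control values that were not above background. Without knockout 2, the highest tumour, it was 2.33 (adjusted p = 0.029). The call was lost without knockout 3 (adjusted p = 0.0503) and without control 1 (0.11), control 2 (0.060) or control 3 (0.081). It was also lost with the authors' values (log2 difference 1.23, adjusted p = 0.18), without background correction (1.69, adjusted p = 0.11), with an offset of 50 (2.24, adjusted p = 0.067) and when dim probes were kept (0.13), and over the alternatives the adjusted p ran from 0.0076 to 0.18.

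The 250 bases before the annotated start of Slc1a1 are shown as the start region of a gene that rose (GRCm38.p6, chr19:28834885-28835134, plus strand, RefSeq). The capitals mark the only match to 7 motifs searched, a GC box 103 to 98 bases before the start.
Slc1a1: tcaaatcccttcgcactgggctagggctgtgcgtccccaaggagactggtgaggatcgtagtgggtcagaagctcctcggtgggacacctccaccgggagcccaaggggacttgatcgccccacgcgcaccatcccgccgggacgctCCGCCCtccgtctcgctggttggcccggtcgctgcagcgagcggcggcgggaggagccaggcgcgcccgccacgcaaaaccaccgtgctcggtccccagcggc
The window had a GC content of 70.4%, against a median of 52.4% over 32817 windows of all genes, of which 32.7% held a GC box. Of the 22 detected transporters with a listed start region, 13 held a GC box, and Slc1a1 was the only called gene among those 13. The called genes Slc6a2 and Slc7a3 had no listed start region and were not searched.

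The other glutamate carriers of the family did not pass. Slc1a2, the main glial glutamate carrier, had log2 signals of 5.64, 6.11 and 5.58 in knockout tumours and 5.27, 5.79 and 5.84 in control tumours, a difference of 0.14 ± 0.25 (SE, limma adjusted p = 0.78). A second probe of Slc1a2 gave 0.93 ± 0.28 (SE, limma adjusted p = 0.081), and its knockout tumours, at 6.18, 6.35 and 5.86, all lay above its control tumours, at 4.65, 5.47 and 5.48. The probes of this gene thus differ in size, and neither was called. Slc1a3, the glutamate carrier of astrocytes, lay at 6.22, 4.66 and 7.53 in knockout tumours and at 5.83, 5.19 and 5.09 in control tumours, so that the groups overlapped (0.77 ± 0.64 SE, limma adjusted p = 0.52). Slc1a4, a carrier of alanine, serine and cysteine, differed by -0.28 ± 0.25 (SE) and the retinal glutamate carrier Slc1a7 by -0.15 ± 0.32 (SE). Slc1a7 was above background on 3 knockout arrays and 1 control array, so its difference rests in part on values at background.

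Slc6a12 takes up betaine, an osmolyte, and GABA. Its log2 signal was 4.71, 4.42 and 4.44 in knockout tumours 1, 2 and 3, and 7.51, 7.18 and 7.48 in control tumours 1, 2 and 3. No knockout value reached the control values, and all 3 knockout values were at background, where the spread (SD 0.16) is that of background signal. Since no knockout array was above background, only a bound can be given on this normalized scale. On that scale Slc6a12 was at least 5.56-fold lower in knockout tumours (limma adjusted p = 0.0020). The bound divides the control mean by the knockout mean, with each knockout value raised to its array's floor of detected signals where it lay below; the floors were 4.90 to 5.0 log2 units. The gene passed the filter through the control tumours alone, so the call is a description and not independent support. Over the alternatives the adjusted p ran from 0.00095 to 0.020, while the measured log2 difference of -2.86 became -0.85 with the authors' values and -1.29 without background correction.

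Slc6a17 loads neutral amino acids such as proline, glycine and leucine into synaptic vesicles. It lay at 4.40, 4.74 and 5.43 in knockout tumours 1, 2 and 3, and at 7.11, 6.20 and 6.93 in control tumours 1, 2 and 3. The groups did not overlap, and of the knockout tumours only knockout 3 was above background. The gene fell by 1.89 on the log2 scale (SE 0.34, limma adjusted p = 0.015), a size that rests in part on the 2 knockout values not above background. The call was lost without knockout 2 (adjusted p = 0.063), control 1 (0.070) or control 3 (0.057) and without the filter (0.066), over the alternatives 0.012 to 0.070, and the difference was -0.52 with the authors' values and -0.80 without background correction.

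The start regions of both genes that fell within the Slc6 family are shown because each holds a match to the AP-1 motif TGANTCA, in capitals (250 bases before the start, GRCm38.p6, RefSeq). That of Slc6a12 lies at chr6:121342324-121342573 on the plus strand, with the match 58 to 52 bases before the start. That of Slc6a17 lies at chr3:107518019-107518268 on the minus strand, with the match 33 to 27 bases before the start.
Slc6a12: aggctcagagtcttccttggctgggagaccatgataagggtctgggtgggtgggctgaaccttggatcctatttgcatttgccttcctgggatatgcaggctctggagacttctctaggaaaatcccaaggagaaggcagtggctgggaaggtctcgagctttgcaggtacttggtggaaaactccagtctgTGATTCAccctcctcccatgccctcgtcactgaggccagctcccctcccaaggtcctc
Slc6a17: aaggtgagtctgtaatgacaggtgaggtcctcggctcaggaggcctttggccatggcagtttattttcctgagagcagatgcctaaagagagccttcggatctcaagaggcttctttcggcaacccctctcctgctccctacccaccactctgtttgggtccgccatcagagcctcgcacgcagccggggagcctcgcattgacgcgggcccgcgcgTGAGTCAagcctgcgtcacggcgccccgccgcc
Among all 32817 windows 6.75% held this motif, as did 4 of the 22 detected transporters with a listed start region, the others being Slc38a7 and Slc38a10, which were not called. Slc6a12 has 5 listed starts, of which 1 held the AP-1 motif, and Slc6a17 has 2, both with it. Another motif searched, the nuclear receptor half-site AGGTCA, was held by 1 of the 5 starts of Slc6a12, though not by the one shown. Over all windows 14.0% held that half-site. The motifs were chosen after the values were seen, and a match is a description of letters only.

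Among the other Slc6 members, Slc6a6, the taurine transporter, had log2 signals of 13.43, 12.41 and 13.22 in knockout tumours and 12.68, 12.25 and 11.68 in control tumours. The groups overlapped through knockout 2 and control 1, and the difference of 0.82 ± 0.35 (SE) was not called (limma adjusted p = 0.20). Slc6a9, a glycine transporter, was high in knockout 1 alone, at 9.49, 7.44 and 7.64 in knockout tumours and 8.66, 8.21 and 8.31 in control tumours (-0.20 ± 0.51 SE, limma adjusted p = 0.86). Slc6a8, the creatine transporter, differed by -0.30 ± 0.23 (SE). The serotonin carrier Slc6a4, the dopamine carrier Slc6a3 and Slc6a19, a neutral amino acid carrier of gut and kidney, differed by 0.12, -0.10 and 0.31 log2 units, with no call.

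**Figure D2:**
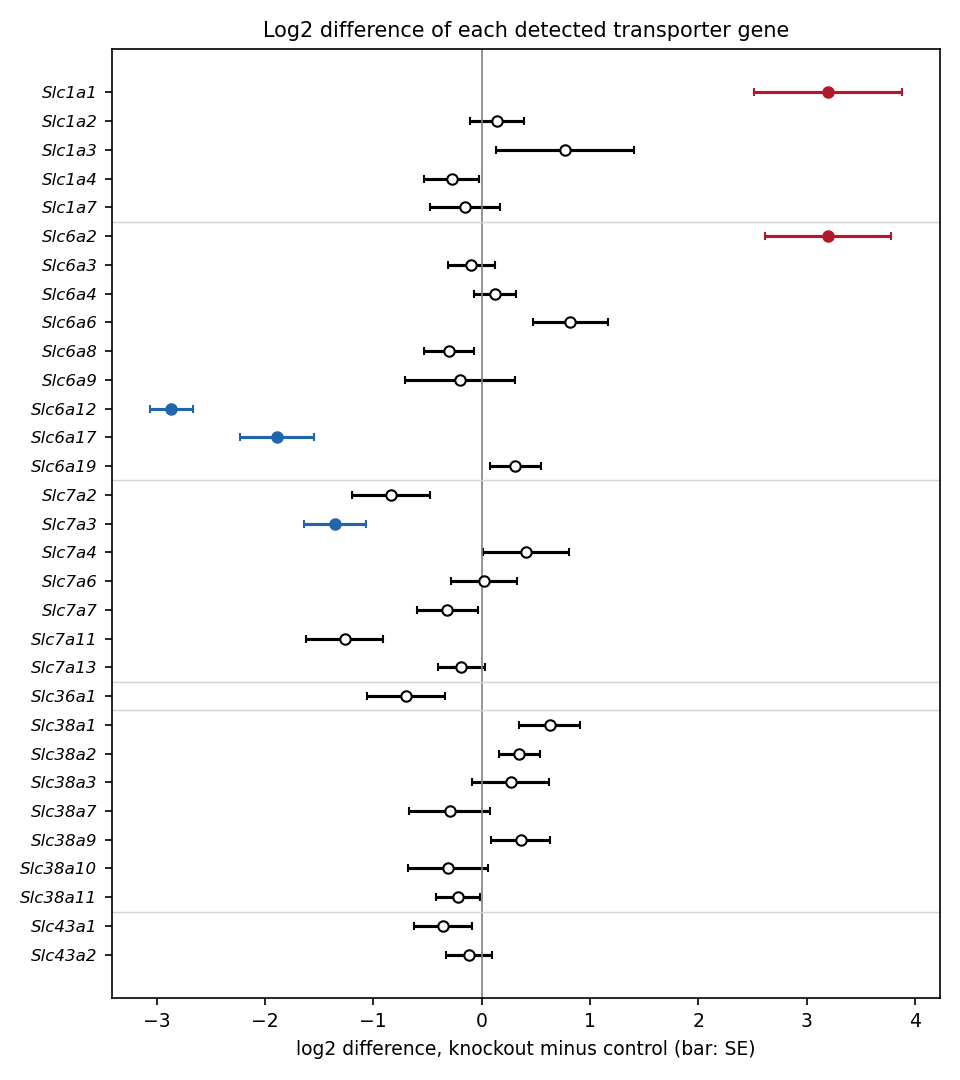
Log2 difference, knockout minus control (horizontal axis), of the 31 detected transporter genes, by family from Slc1 at the top to Slc43 at the bottom, with bars for the SE. Filled red and blue points passed the test as higher and lower, and open points did not. The 2 rises lie at 3.19 and 3.20, and Slc6a17 and Slc7a3 at -1.89 and -1.36. Slc6a12 is drawn at its measured -2.86, although its knockout values were at background. On this normalized scale only the bound of at least 5.56-fold lower can be given. Of the 26 open points, 20 lie within 0.5 of 0.

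In the Slc7 family, Slc7a3, a cationic amino acid carrier known mainly from neurons, fell. It lay at 5.41, 4.92 and 5.29 in knockout tumours 1, 2 and 3, and at 6.92, 6.77 and 6.0 in control tumours 1, 2 and 3. The groups did not overlap on the normalized scale, but in deposited signal control 3 (133.7) lay below knockout 1 (136.7). All 6 tumours were above background, knockout 2 only narrowly, at 4.922 with its array's floor at 4.918. A dimmer Slc7a3 probe, left out by the filter, was above background on 1 knockout array and no control array. Its mean was higher in knockout tumours (4.70) than in control tumours (4.33), and its groups overlapped. The gene fell by 1.36 on the log2 scale (SE 0.29, limma adjusted p = 0.026), a 2.56-fold difference. The call was lost without knockout 2 (adjusted p = 0.098), knockout 3 (0.057), control 1 (0.10) or control 2 (0.075), without the filter (0.083), without background correction (log2 difference -0.57, adjusted p = 0.060) and with the authors' values (-0.38, adjusted p = 0.068), over the alternatives 0.019 to 0.10.

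Slc7a11, the light chain of the cystine and glutamate exchanger that feeds glutathione synthesis, had the largest difference among the genes not called. Its log2 signal was 5.11, 5.07 and 5.32 in knockout tumours and 5.58, 6.83 and 6.89 in control tumours. The groups did not overlap, but control 1 lay close to the knockout tumours. The difference was -1.26 ± 0.35 (SE, limma adjusted p = 0.065), and without control 1 it was called (-1.69, adjusted p = 0.024, over the alternatives 0.024 to 0.53). A second probe gave -0.31 ± 0.26 (SE).

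The start region of Slc7a11 is shown because it was the only one among the 22 to hold the amino acid response element TGATGCAA, which was found in 0.792% of all windows (chr3:50443614-50443863, minus strand, GRCm38.p6, RefSeq). In capitals are its matches on both strands, 66 to 59 and 47 to 40 bases before the start, and a STAT motif TTCNNNGAA 183 to 175 bases before it.
Slc7a11: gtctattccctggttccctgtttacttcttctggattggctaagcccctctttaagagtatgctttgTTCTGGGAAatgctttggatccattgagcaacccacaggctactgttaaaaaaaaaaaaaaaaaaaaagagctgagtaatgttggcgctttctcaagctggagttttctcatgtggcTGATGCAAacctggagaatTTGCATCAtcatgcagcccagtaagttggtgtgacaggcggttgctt
Such elements are known as sites of the transcription factor Atf4, which acts when amino acids run short. Whether a factor was bound was not measured.

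Slc7a2, another cationic carrier, lay at 5.21, 5.14 and 5.10 in knockout tumours and at 5.51, 6.86 and 5.59 in control tumours, without overlap. Its difference of -0.84 ± 0.36 (SE) was not called (limma adjusted p = 0.20). Slc7a7 and Slc7a6, light chains that exchange cationic for neutral amino acids, differed by -0.32 ± 0.28 (SE) and 0.02 ± 0.31 (SE), and the 3 detected probes of Slc7a7 ranged from -0.32 to 0.32. Slc7a4, a relative of the cationic carriers, differed by 0.41 ± 0.40 (SE), and Slc7a13 by -0.19 ± 0.22 (SE). Slc7a13 was above background on 2 knockout and 2 control arrays, so its difference rests in part on values at background.

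The glutamine carriers of the Slc38 family gave no call among 7 detected genes, with log2 differences between -0.31 and 0.63. Slc38a2, which is induced by amino acid shortage and carries small neutral amino acids, was 9.90, 9.75 and 9.57 in knockout tumours and 9.48, 9.30 and 9.41 in control tumours. The groups did not overlap, yet the difference of 0.35 ± 0.19 (SE) was small (limma adjusted p = 0.31). A second probe of Slc38a2 was high in knockout 1 alone, at 8.94, 6.72 and 7.02 in knockout tumours and 7.22, 7.43 and 7.03 in control tumours. Slc38a1, a glutamine carrier, lay at 6.03, 5.96 and 5.32 in knockout tumours and at 5.16, 5.51 and 4.76 in control tumours (0.63 ± 0.28 SE, limma adjusted p = 0.22). The log2 differences of Slc38a3, Slc38a10 and Slc38a11 were 0.27, -0.31 and -0.22. Those of Slc38a3 and Slc38a11 rest in part on values at background. Slc38a3 was above background on 2 knockout and 2 control arrays, and Slc38a11 on 1 knockout array and 2 control arrays.

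Within these families, the carriers of the lysosomal membrane Slc38a9, Slc38a7 and Slc36a1 were not called. Slc38a9, which senses arginine for the mTOR complex, differed by 0.36 ± 0.27 (SE, limma adjusted p = 0.48), and Slc38a7, a lysosomal glutamine exporter, by -0.30 ± 0.37 (SE, limma adjusted p = 0.70). Slc38a9 was above background on 2 knockout arrays and 1 control array, so its difference rests in part on values at background. Slc36a1, a proton-coupled exporter of small amino acids, lay at 5.31, 4.64 and 5.50 in knockout tumours and at 6.54, 5.69 and 5.33 in control tumours (-0.70 ± 0.36 SE, limma adjusted p = 0.28). In the Slc43 family, Slc43a1 and Slc43a2, carriers of leucine and other large neutral amino acids, differed by -0.36 ± 0.27 (SE) and -0.12 ± 0.21 (SE). Slc43a2 was above background on 1 knockout array and 3 control arrays, so its difference rests in part on values at background.

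**Figure D3:**
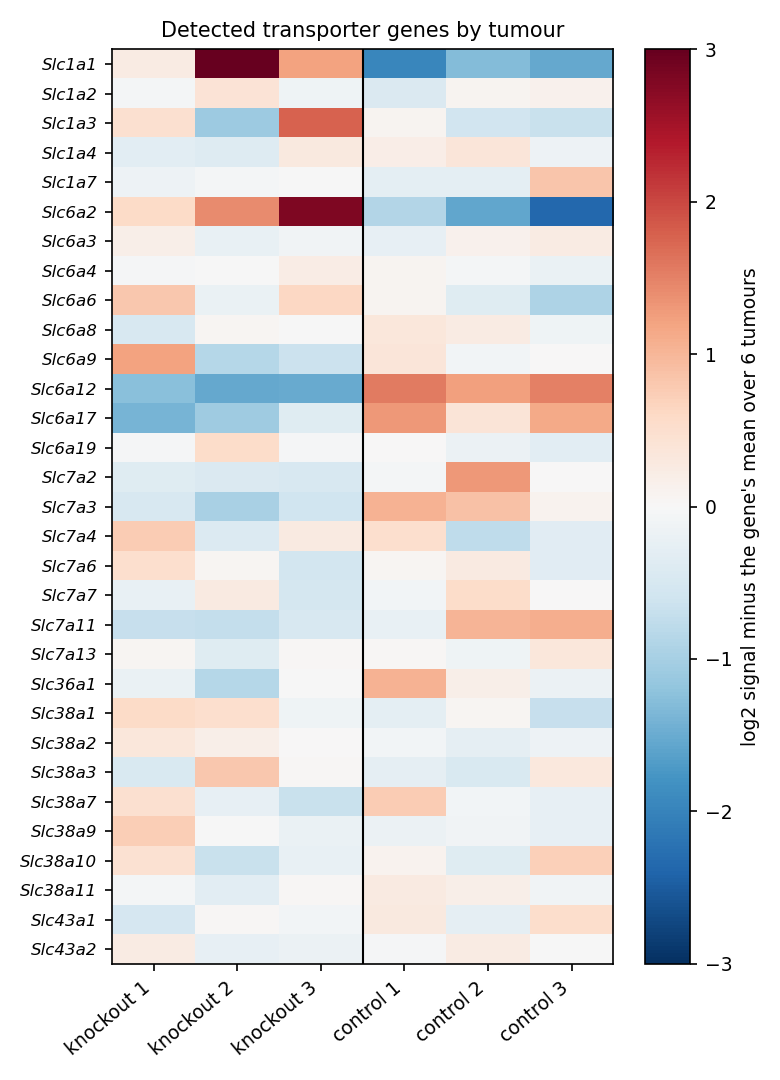
Log2 signal of each of the 31 detected transporter genes (rows, by family) in each knockout and control tumour (columns, knockout left of the line), as the difference from that gene's mean over the 6 tumours (colour scale). Slc1a1 and Slc6a2 lie above their means (red) in the knockout columns, and Slc6a12 and Slc6a17 below (blue). Slc1a1 in knockout 1 and Slc6a17 in knockout 3 depart little from the mean and are pale, as are most other rows. Slc6a9 stands out in knockout 1, with 9.49 against 7.44 and 7.64 in knockout 2 and 3.

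The remaining 26 genes had no detected probe. Of these, 20 were above background on no array, among them the heavy chain Slc3a2 with 1 probe, the glutamine carrier Slc1a5 with 5 probes and the arginine carrier Slc7a1 with 2 probes. The others in this class were Slc1a6, Slc36a2, Slc38a5, Slc38a8, Slc43a3, Slc6a5, Slc6a7, Slc6a13, Slc6a14, Slc6a18, Slc6a20a, Slc6a20b, Slc6a21, Slc7a9, Slc7a10, Slc7a12 and Slc7a14. A probe that is not above background gives no information on how much of the transcript was present below that limit, and whether these probes can detect their transcripts was not tested. The other 6 genes, Slc36a3, Slc38a4, Slc6a11, Slc6a15, Slc7a15 and Slc7a8, were above background on 1 or 2 arrays only. A further 6 genes of these families had no named probe and were not analysed here.

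Genes that make, sense or use amino acids were followed in 6 lists beside the carriers. Over all detected genes 10.1% were called, 4.47% higher and 5.63% lower. The list counts below stand beside these shares, and no list was tested. Of the amino acid response genes, 1 of 16 detected rose and 2 fell (median log2 difference -0.23). The hormone gene Fgf21, which is induced by amino acid shortage, lay at 5.66, 5.25 and 5.61 in knockout tumours and at 7.74, 8.32 and 6.73 in control tumours, and fell by 2.09 on the log2 scale (SE 0.38, limma adjusted p = 0.017). Ddit3, a stress transcription factor downstream of Atf4, lay at 8.86, 7.65 and 7.49 in knockout tumours and at 9.81, 9.56 and 9.40 in control tumours, and fell by 1.60 on the log2 scale (SE 0.36, limma adjusted p = 0.035). Both genes were lower in every knockout tumour than in every control tumour. Cebpb, a transcription factor of many responses, rose by 0.88 ± 0.21 (SE, limma adjusted p = 0.039). The other 13 detected genes of the list were not called, and Atf4 was among them (0.01 ± 0.26 SE, limma adjusted p = 0.99). The call of Fgf21 was lost without knockout 2 (adjusted p = 0.067) or control 1 (0.074), with the authors' values (log2 difference -0.79, adjusted p = 0.075) and with dim probes kept (0.074). That of Ddit3 was lost without any 1 tumour other than knockout 1 (0.078 to 0.13), with the authors' values (0.055) and with dim probes kept (0.12). That of Cebpb was lost without any 1 tumour other than control 3 (0.074 to 0.14) and with dim probes kept (0.056). The list's 3 calls thus became 1 with the authors' values, without knockout 3 or without control 2, and 0 by limma with dim probes kept, without knockout 2 or without control 1.

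Of 8 detected genes of serine, glycine and one-carbon synthesis, 0 rose and 1 fell (limma, median log2 difference -0.48), with 3 called without knockout 1. The fall was that of Aldh1l2, a mitochondrial enzyme of folate metabolism, which lay at 7.19, 7.38 and 7.59 in knockout tumours and at 9.44, 9.41 and 9.04 in control tumours (-1.91 ± 0.21 SE, limma adjusted p = 0.0036). Of 19 detected genes of amino acid metabolism 2 fell (median -0.11), and the count called was 4 with the authors' values, without background correction or with an offset of 50, and 1 with dim probes kept, without control 1 or without control 3. Bcat1, the cytosolic enzyme that starts the breakdown of branched-chain amino acids, lay at 6.69, 7.10 and 8.33 in knockout tumours and at 11.25, 10.83 and 10.81 in control tumours (-3.59 ± 0.41 SE, limma adjusted p = 0.0038). Oat, which converts ornithine, fell by 1.42 on the log2 scale (SE 0.26, limma adjusted p = 0.016), and its call was lost without control 1 (0.068) or control 3 (0.056) and with dim probes kept (0.051). Aldh1l2 and Bcat1 were called in all 15 alternatives.

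Of 25 detected genes of amino acid sensing at the lysosome, 1 fell (median log2 difference -0.05), with 2 called without knockout 1. This was Castor1, an arginine sensor that restrains the mTOR complex, with 7.05, 7.50 and 7.46 in knockout tumours and 8.72, 8.43 and 9.05 in control tumours (-1.39 ± 0.24 SE, limma adjusted p = 0.013), its call lost without control 1 (0.058). Of 13 detected carriers of amino acids and peptides from other families, 1 rose and 1 fell (median 0.06). Slc15a3, a lysosomal carrier of histidine and small peptides, lay at 4.72, 4.77 and 5.38 in knockout tumours and at 6.87, 7.34 and 6.65 in control tumours (-2.0 ± 0.27 SE, limma adjusted p = 0.0065). Only 1 knockout array was above background for it, so this size rests in part on knockout values at background. The difference was -0.57 with the authors' values and -0.85 without background correction. Slc25a18, a mitochondrial glutamate carrier, rose by 1.59 ± 0.36 (SE, limma adjusted p = 0.032), a call lost without knockout 2 (0.11), knockout 3 (0.083), control 1 (0.11) or control 3 (0.096). It was also lost with the authors' values (log2 difference 0.42, adjusted p = 0.091), with uncorrected signals (0.65, adjusted p = 0.067) and with dim probes kept (0.12). For Slc25a18 only 1 control array was above background, so the size of its rise rests in part on control values at background. Of 16 detected aminoacyl-tRNA synthetases none was called (median -0.12), and those of smallest p were Aars (-0.66 ± 0.22 SE, limma adjusted p = 0.11) and Gars (-0.52 ± 0.20 SE, limma adjusted p = 0.15).

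**Figure D4:**
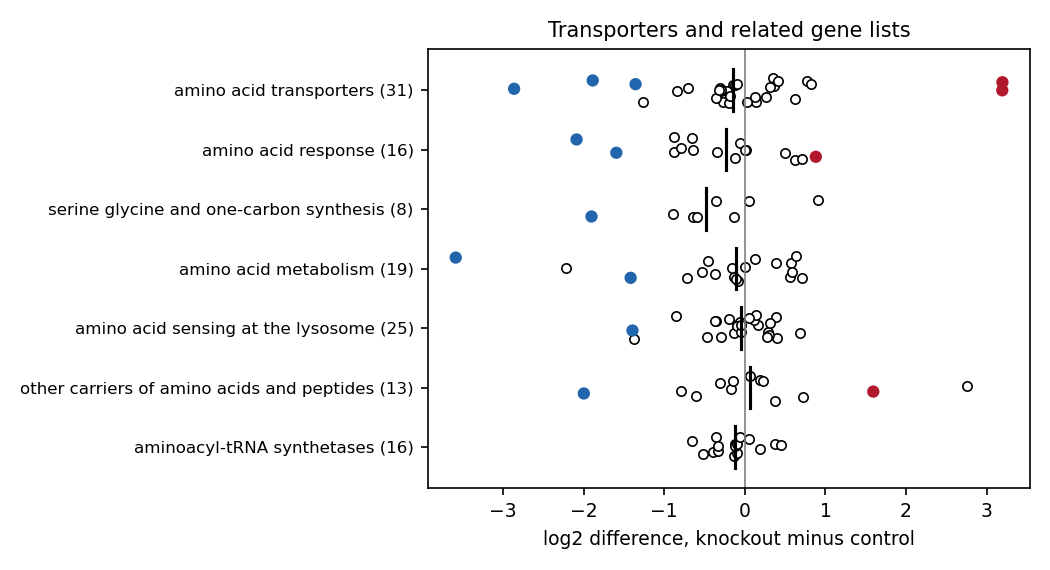
Log2 difference, knockout minus control (horizontal axis), of the detected transporter genes and of the 6 related gene lists (rows, with the number of detected genes), where each point is a gene, filled red or blue if called higher or lower, and the black bar is the list's median. The medians lie between -0.48 and 0.06. The lowest point is Bcat1 at -3.59 and the highest are Slc6a2 and Slc1a1 at 3.20 and 3.19.

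Markers of other cell types moved with the genotype in the same tumours, and their part in the transporter differences was not tested. In bulk tissue, fewer cells of a type and less RNA per cell cannot be told apart. The marker counts here and below stand beside 4.47% of all detected genes called higher and 5.63% called lower. Of 12 detected luminal epithelial markers 7 were called higher and 0 lower (limma). Their mean log2 signal per tumour lay between 9.52 and 10.02 in knockout tumours and between 7.37 and 8.45 in control tumours, and Ehf was above background on no array. Of 13 detected fibroblast and matrix markers 7 were lower and 0 higher, with means of 6.35 to 8.27 in knockout tumours and 9.43 to 10.73 in control tumours, and Postn above background on no array. Of 9 detected basal and myoepithelial markers 4 were lower and 1 higher (7.58 to 9.46 in knockout tumours, 9.71 to 10.60 in control tumours). The list was split, so its mean does not describe all its genes. Lower were the contractile genes Tagln (-4.93), Actg2 (-3.90), Myh11 (-3.17) and Acta2 (-2.45), and Krt14 was higher (1.39). Mylk (-2.64), Trp63 (1.55), Krt17 (0.12) and Krt5 (-0.11) were not called. Of 7 detected milk and alveolar markers 1 was higher (7.33 to 9.76 in knockout tumours, 6.86 to 7.15 in control tumours), while Csn1s2a, Csn2, Lalba and Glycam1 were above background on no array.

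Slc6a2, Slc6a17 and Slc7a3 are carriers known from neurons, so neural markers are given beside them. Of 7 named neural markers 1 was detected, the myelin gene Mbp, at 7.88 to 8.54 in knockout tumours and 6.57 to 6.99 in control tumours, and it was called higher. The neuronal genes Tubb3, Syp and Nefl and the glial gene S100b were above background on no array. Of the 2 detected endothelial markers 1 was lower (5.25 to 6.15 in knockout tumours, 7.09 to 8.70 in control tumours), with Cdh5, Tek, Vwf and Cldn5 above background on no array. The lists of macrophages, T and NK cells, B and plasma cells, neutrophils and mast cells, adipocytes and skeletal muscle had 2 detected genes each. None of these genes was called, and the medians, in this order, were 1.02, -0.18, 0.18, 1.25, -0.25 and -1.76. For macrophages, T and NK cells, and B and plasma cells the 2 genes went opposite ways, so these medians describe neither gene. In knockout tumours the means of Cd14, Prf1 and Ms4a1 were higher, and those of Csf1r, Cd3e and Pax5 lower. In the remaining lists of this group both genes went the same way.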

How the data were processed

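Total RNA of 6 breast tumours was hybridised as biotin-labelled cRNA to Illumina bead arrays, per the labels' protocols. The authors deposited signal intensities with a detection p-value per probe and array, per the file headers. In 1 detection column, of unit other, the deposited values of 4 broken lines (2 probes) were not p-values. A line was left out when it had a wrong number of fields, no probe identifier or an empty cell, which held for these 4 lines. The authors also deposited normalized log2 values. The submitters' processing notes name lumi 2.6.0 without its steps, and each column had a Spearman correlation of 1 with its array's signals and a median of 7.40 to 7.41. Their scaling is unknown, and they were used only as an alternative.

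The neqc function of limma 3.58.1 (R 4.3.3) applied background correction, an offset of 16, quantile normalization and log2, with the background inferred from the detection p-values, as no control probes were at hand. Log2 values of dim probes are compressed by the offset and the background. The filter kept 15885 of 45279 probes, those whose detection p was under 0.05 on 3 or more of 6 arrays. With 3 arrays a group, precision is limited by their number. Symbols came from the platform annotation, with 34883 probes of 1 symbol, 18 of several, from which no gene was named, and 10378 unnamed here. Of these, 34805 matched the GRCm38.p6 gene table by gene number and 0 symbols changed. Start regions came from the RefSeq table, which held 22 of the 31 detected genes, and 250 bases before the start nearest the gene's own were searched for the nuclear receptor half-site AGGTCA, the amino acid response element TGATGCAA, the AP-1 motif TGANTCA, the STAT motif TTCNNNGAA, the E-box CACGTG, the GC box GGGCGG and the motif of the erythroid-type zinc finger factors, AGATAA, on both strands. Matches of different motifs did not overlap in the windows shown.

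Knockout minus control was fitted per probe with lmFit and eBayes, two-sided, with Benjamini-Hochberg adjustment over all kept probes. A gene was described by its kept probe with the highest mean. All members could be named. From each related list the called genes of smallest p, at most 4, were named, or 2 where none was called, and a list was described by counts with no test. Atf4 was named in addition, because of the motif at Slc7a11. The members and lists were chosen with earlier results of these data known. The fit was tested on simulated data. The alternatives used the authors' values, uncorrected signals, an offset of 50, cyclic loess, no filter, detection on all arrays of a group, a replicate block, leaving out each tumour, eBayes with trend and robust, and the lowest-mean probe of a gene.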

Additional observations from a re-analysis of the deposited data

Results flagged for a closer look

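A probe of Slc1a1 outside the comparison, since it was above background on fewer than 3 arrays, reached a log2 value of 7.14 in knockout 2, with 4.81 and 5.26 in knockout 1 and 3 and 4.36, 4.54 and 4.50 in control tumours 1, 2 and 3. It was above background on 2 knockout arrays and on no control array. Knockout 2 was also the highest tumour for the Slc1a1 probe described above, at 9.63.

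A probe of Slc6a15, a carrier of branched-chain amino acids and proline known from neurons, reached 7.04 in knockout 2, with 4.90 and 4.62 in knockout 1 and 3 and 4.29, 4.43 and 4.69 in control tumours 1, 2 and 3. This signal came from a probe that the filter left out, and it was above background on 2 knockout arrays and on no control array. The other 4 probes of Slc6a15 were above background on at most 1 array each.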

How the results depend on the processing

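Of the 5 called transporters, Slc6a12, which passed the filter through the control tumours alone, kept its call in all 15 alternatives, Slc6a17 lost it in 4, Slc6a2 in 5, Slc7a3 in 7 and Slc1a1 in 8, and no called gene changed sign. The count of called transporters, 5 at first with 2 higher and 3 lower, was 2 with the authors' values (0 higher), 3 without background correction (1 higher), 4 with an offset of 50 (1 higher), 1 without the filter on dim probes (0 higher, 1 lower) and 4 with the lowest-mean probe of each gene (1 higher). Without the filter 723 probes were called, against 1461, and more probes were then adjusted together. Leaving out 1 tumour at a time gave 476 to 1564 called probes, 2 to 5 called transporters, 0 to 2 higher, 1 to 3 lower and a median of -0.1915 to -0.0491 over the transporters. The lowest count of probes, 476, came without control 1, with 568 without knockout 2 and 741 without control 3, and the transporters called were 2 without knockout 2 or control 3 and 3 without knockout 3, control 1 or control 2. The median was -0.0447 with the authors' values. The causes were not tested. The labels number the tumours in both groups, and the deviations of same-numbered tumours correlated by 0.227, 0.088 and 0.061, below 0.1 for 2 of 3, so the numbers were not taken to pair the samples. With the replicate block 1381 probes and 5 transporters were called, and of the genes named Cebpb lost its call (adjusted p = 0.072), while Slc15a2 (0.025) and Ass1 (0.016) gained one, so that the lists of other carriers and of amino acid metabolism had 3 calls each, against 2 each without the block. Each knockout tumour correlated best with the control of its own number, but control 3 correlated best with knockout 2 (0.075). The slide as a block was not run, since the columns used here name no slide. The signal over background limits the low end: 12 of the 31 detected genes were above background on 4 or 5 arrays and 4 on 3.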

Other observations

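2 genes of the related lists, named after their values were seen, had large differences that were not called with all 6 tumours and no replicate block. Slc15a2, a carrier that takes up small peptides, had log2 signals of 9.27, 11.72 and 11.59 in knockout tumours and 7.55, 9.39 and 7.38 in control tumours, so that knockout 1 and control 2 overlapped (2.75 ± 0.75 SE, limma adjusted p = 0.061, over the alternatives 0.010 to 0.22, and called without knockout 1 at 0.010 or without control 2 at 0.041). Ass1, which makes argininosuccinate on the way to arginine, had 7.70, 9.13 and 10.63 in knockout tumours and 10.72, 11.24 and 12.16 in control tumours. The groups did not overlap, and the difference was -2.22 ± 0.70 (SE, limma adjusted p = 0.092, over the alternatives 0.016 to 0.30, and called without knockout 3 at 0.022).

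Knockout 1 stood apart from knockout 2 and 3 for Slc6a9 and for the second probe of Slc38a2, and in the same direction for Slc38a9, which lay at 5.79, 5.04 and 4.84 in knockout tumours 1, 2 and 3.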
